A study of Mus musculus with 40 samples.

Results

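The cluster of miR-322, miR-503, miR-351, miR-542 and miR-450 is a group of miRNA hairpins that lie next to each other on the mouse X chromosome. The 10 mature miRNAs described here were chosen by their names, as mmu-miR-322-5p, mmu-miR-322-3p, mmu-miR-503-5p, mmu-miR-503-3p, mmu-miR-351-5p, mmu-miR-450a-5p, mmu-miR-450b-5p, mmu-miR-450b-3p, mmu-miR-542-3p and mmu-miR-542-5p. All 10 were found among the 1978 mature miRNAs of the count table. Counts entered the choice only for mmu-miR-450a-5p, which is listed with 2 precursors and for which the precursor with the higher total was taken, and its counts on the other precursor differed in 2 libraries.

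Small RNA was sequenced from the CA1 region of the hippocampus, with 1 library for each of 40 mice. The mice of 3 months comprised 9 CamKIIδC TG animals and 5 wild-type controls, and those of 6 months 11 CamKIIδC TG animals and 15 wild-type controls. TG mice overexpress a calcium/calmodulin-dependent protein kinase and serve as a model of heart failure, the controls were their wild-type littermates, and all mice were on the C57Bl/6J background. Animals of both sexes were used, but the labels give neither the sex of a mouse nor the promoter of the transgene, so sex could not enter the comparisons of these X-linked miRNAs. Wild-type control mice 1 and 2 of 3 months carry a label conflict, since their titles give wild-type and their genotype field TG. The title was followed, and values without both mice are given for the members that differed most.

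A miRNA hairpin is cut into a 5p and a 3p arm, and the arm that is loaded into an Argonaute protein represses mRNAs that pair with its seed, bases 2 to 8. Hairpins that lie close together are often transcribed as 1 precursor RNA, so that differences between them in the amount of mature miRNA can arise at processing, loading or decay. The miR-322 and miR-503 5p arms resemble the miR-15 and miR-16 family, known for repressing cyclins and other genes of the cell cycle, and miR-322 is the rodent counterpart of human miR-424. miR-351 shares its seed with miR-125, an abundant miRNA of neurons, and miR-542-3p is known to repress survivin, an inhibitor of apoptosis.

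The mature sequences are shown because the seeds decide which members can act on the same mRNAs. They were read from RefSeq on GRCm38.p6 for all 10 members and are printed from 5′ to 3′ with the seed in capitals. The 5p arms of the hairpins nearest to the start of the cluster have related seeds that differ at the last base:
mmu-miR-322-5p: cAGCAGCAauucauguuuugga
mmu-miR-503-5p: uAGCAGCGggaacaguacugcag
mmu-miR-15a-5p: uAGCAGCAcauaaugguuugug
mmu-miR-16-5p: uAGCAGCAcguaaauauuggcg
The last 2 lie outside the cluster and share the whole seed of mmu-miR-322-5p. Over their length, mmu-miR-322-5p and mmu-miR-503-5p differed at 11 of 22 positions.

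The 5p arm of miR-351 carries the seed of the miR-125 family, shown by its most abundant relatives:
mmu-miR-351-5p: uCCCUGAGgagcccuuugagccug
mmu-miR-125a-5p: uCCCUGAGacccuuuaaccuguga
mmu-miR-125b-5p: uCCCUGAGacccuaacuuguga
The miR-450 arms resemble each other to different degrees. The 5p arms of miR-450a and miR-450b differed at 7 of 22 positions and have different seeds, while mmu-miR-450b-3p differed at 2 of 22 positions from mmu-miR-450a-1-3p, an arm of a neighbouring hairpin with the same seed:
mmu-miR-450a-5p: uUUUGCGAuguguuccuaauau
mmu-miR-450b-5p: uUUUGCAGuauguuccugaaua
mmu-miR-450b-3p: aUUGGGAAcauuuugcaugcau
mmu-miR-450a-1-3p: aUUGGGAAcauuuugcauaaau
Reads of mmu-miR-450b-3p and mmu-miR-450a-1-3p could have been split between them by the alignment. None of the remaining 4 members shares its seed with another:
mmu-miR-322-3p: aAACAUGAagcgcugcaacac
mmu-miR-503-3p: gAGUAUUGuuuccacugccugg
mmu-miR-542-3p: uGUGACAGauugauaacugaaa
mmu-miR-542-5p: cUCGGGGAucaucaugucacga

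In the GRCm38 annotation the 7 hairpins of the cluster lie on the minus strand of chromosome X within 6353 bases, and no other annotated gene overlaps any of them. In the direction of transcription they are Mir322 (chrX:53054255-53054349), Mir503 (chrX:53053984-53054054), Mir351 (chrX:53053255-53053353), Mir542 (chrX:53049403-53049487), Mir450-2 (chrX:53048299-53048367), Mir450-1 (chrX:53048154-53048244) and Mir450b (chrX:53047997-53048078). The lincRNA gene Gm28730 (chrX:53051194-53053159) fills part of the gap between Mir351 and Mir542, and the non-coding gene C430049B03Rik (chrX:53055046-53057190) ends upstream of Mir322 on the same strand.

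**Figure D1:**
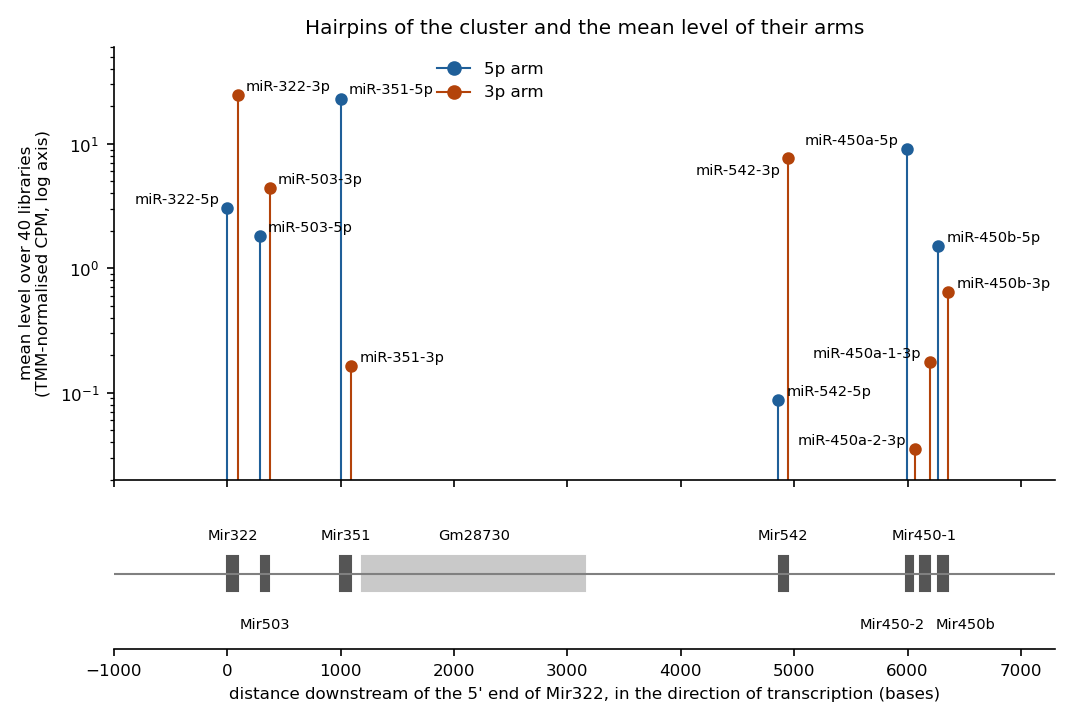
Mean level of each arm of the cluster over 40 libraries (CPM, log axis) against the distance in bases downstream of the 5′ end of Mir322, with the gene Gm28730 in grey. The level does not fall steadily along the cluster: mmu-miR-322-3p (24.7 CPM) and mmu-miR-351-5p (23.1 CPM) exceed every other arm, the first at the 5′ end of the cluster and the second in its middle.

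The miRNA counts ranged from 1926108 to 22892729 per library, with medians of 18431486 (TG) and 14340558 (wild-type control) at 3 months and 9239179 (TG) and 9893109 (wild-type control) at 6 months, so that age and depth moved together. The 4 shallowest libraries, all of 6 months, included 2 of each genotype. The libraries also hold 52 entries of synthetic UniSp oligos, added as spike-ins. A score from the composition of the 23 most abundant of these (their first principal component, 73.8% of the variance) put 22 libraries above 0 and 18 below, with members of each group on both sides. Of the 7 sets of cell type markers, the neuronal set (miR-124-3p, miR-9-5p and miR-128-3p) was the highest, at 164698 to 362841 CPM. The oligodendrocyte set summed to 672 to 2299 CPM, the microglia and leukocyte set to 17.8 to 70.4 CPM, the erythroid set to 439 to 1372 CPM, the endothelial and smooth muscle set to 9491 to 22411 CPM, the choroid plexus set to 290 to 1740 CPM and the striated muscle set to 245 to 1698 CPM. In bulk tissue fewer cells of a type and less RNA per cell cannot be told apart.

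The cluster was expressed at a low level in the CA1 region. All its arms together took between 24.5 and 125.8 CPM before TMM normalization, or 51 to 2695 counts per library with a median of 892. Levels below are CPM, in which counts are scaled to the miRNA counts of a library after TMM normalization. Small RNAs are read whole, so CPM needs no scaling to length, although ligation and amplification can favour 1 sequence over another. Over all libraries mmu-miR-322-3p had the highest mean, at 24.7 ± 5.02 CPM (SD, n = 40), followed by mmu-miR-351-5p at 23.1 ± 6.77 CPM. Their order differed between the ages. mmu-miR-322-3p was the higher one in 14 of 15 wild-type control and 9 of 11 TG mice of 6 months, but in 2 of 5 wild-type control and 4 of 9 TG mice of 3 months, where mmu-miR-351-5p had the higher mean (31.2 against 29.1 CPM and 27.0 against 23.8 CPM). Together they held 63.5% of the cluster's counts.

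A gap separated them from the rest, as mmu-miR-351-5p exceeded mmu-miR-450a-5p (9.08 ± 2.78 CPM) in all 40 libraries. mmu-miR-542-3p had 7.64 ± 2.71 CPM and was below mmu-miR-450a-5p in 28 of 40 libraries. mmu-miR-503-3p had 4.44 ± 1.32 CPM and was below mmu-miR-542-3p in 33. The order was less firm further down, where mmu-miR-322-5p had 3.03 ± 1.82 CPM, mmu-miR-503-5p 1.80 ± 0.843 CPM and mmu-miR-450b-5p 1.51 ± 0.712 CPM. mmu-miR-503-5p exceeded mmu-miR-450b-5p in 22 of 40 libraries. mmu-miR-450b-3p was near the limit of detection at 0.640 ± 0.391 CPM and was listed at 0 in 3 libraries. mmu-miR-542-5p had 41 counts in all 40 libraries together (0.087 ± 0.134 CPM) and was at 0 in 20 of them. A count of 0 allows up to 3 counts, which correspond to 0.131 to 1.56 CPM before TMM normalization, depending on the library. After it, 3 counts of mmu-miR-450a-5p in 6-month-old wild-type control mouse 5 were 2.32 CPM. This limit covers counting error only, so mmu-miR-542-5p could not be compared between groups.

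**Figure D2:**
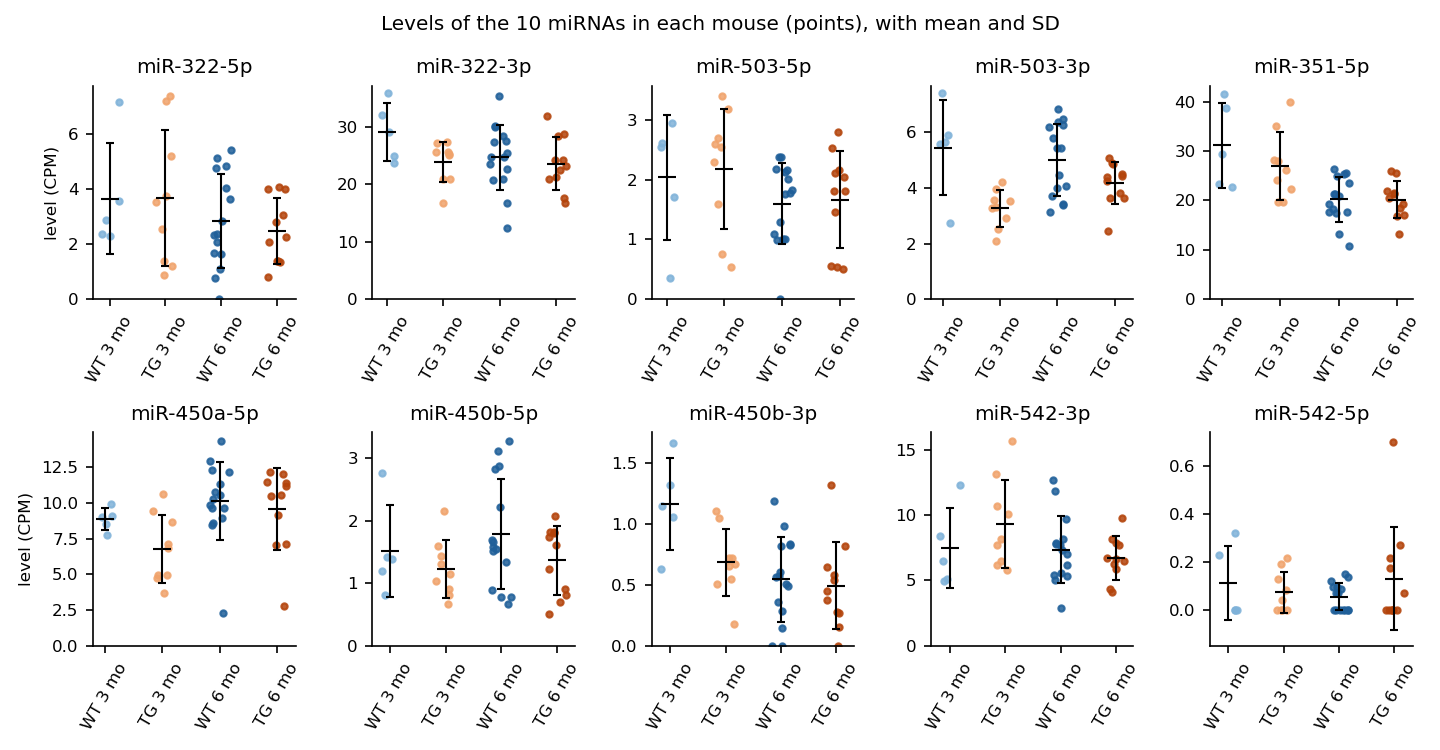
Level of each of the 10 members in every mouse (CPM, 1 panel per member with its own axis), with the mean ± SD of the 4 groups. The ranges of the groups overlap for every member, and mmu-miR-542-5p lies at or near 0 throughout.

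The arm with more counts was not the same one along the cluster. The 3p arm prevailed for miR-322, where mmu-miR-322-3p exceeded mmu-miR-322-5p in 40 of 40 libraries with a median ratio of 9.54 (range 3.48 to 67.0). The 3p arm also prevailed for miR-503, at a median ratio of 2.43 and in 37 of 40 libraries. It was the higher arm in 6 of 9 TG mice of 3 months, where the median ratio was 1.275, and in every mouse of the other groups. For miR-542 the 3p arm prevailed with 3700 counts against 41 over all libraries. The 5p arm prevailed for miR-351, with 12382 counts against 85. For miR-450b the 5p arm was higher in 36 of 40 libraries, at a median ratio of 2.11. By group this median was 1.27 (wild-type control) and 1.57 (TG) at 3 months, and 2.60 (wild-type control) and 2.91 (TG) at 6 months. The minor arms of miR-542 and miR-351 were at 0 in 20 and 14 libraries, so no ratio per library is given for them. The arms of the same hairpins that are no members were rare, with 105 counts in all libraries for mmu-miR-450a-1-3p, 85 for mmu-miR-351-3p and 21 for mmu-miR-450a-2-3p. The arm of miR-322 with the cell cycle family's seed thus had the fewer counts in every mouse. Since ligation and amplification can differ between sequences, these ratios of counts do not give the ratio of the arms in the tissue.

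The balance of the arms was compared between groups as the log2 ratio of the 5p to the 3p count, which does not depend on scaling between libraries. The mean log2 ratio of mir-322 was -3.01 ± 0.993 (SD, n = 9) in TG mice of 3 months and -3.10 ± 0.811 (n = 5) in wild-type controls of that age. At 6 months it was -3.36 ± 0.933 (n = 15) in wild-type control mice and -3.33 ± 0.529 (n = 11) in TG mice. The spread within groups was larger than the differences between them. In TG mice, limma called 19.5% of the 241 hairpins tested between 3 and 6 months, and none of the 3 cluster hairpins tested was among them, the largest difference being -0.72 (SE 0.41, adjusted p = 0.233 by limma) for mir-503. It called 0% of hairpins in each of the other comparisons, where an unadjusted p under 0.05 was found for 36 hairpins (age in wild-type control mice), 8 (genotype at 3 months) and 16 (genotype at 6 months), and no other tool was run on these ratios. With the replicate number of the titles as a block, limma called 97 of 234 hairpins with age in wild-type control mice, again with no cluster hairpin among them. That fit compared the ages within the numbers 1 to 5 only.

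**Figure D3:**
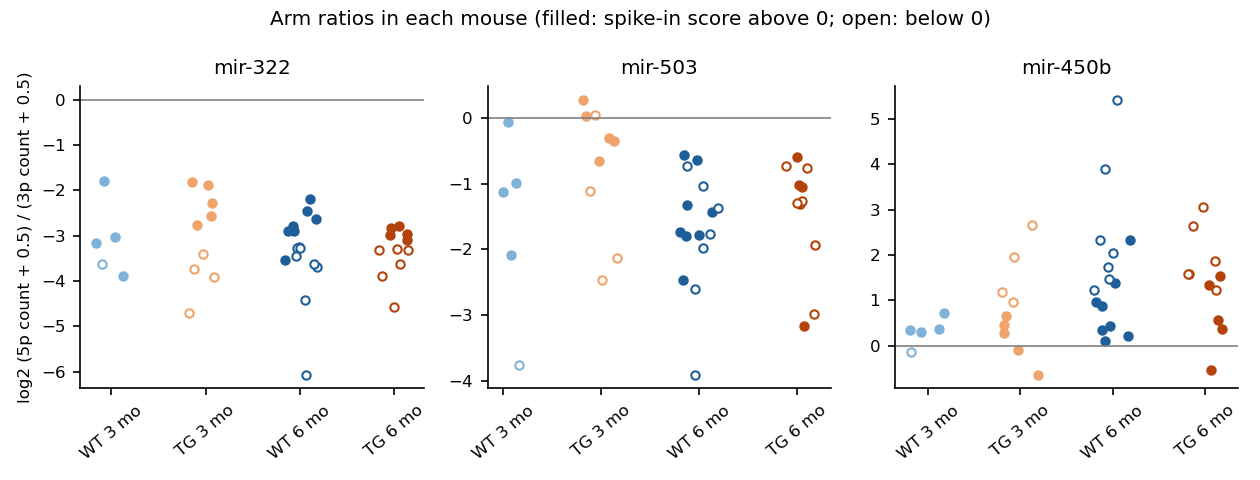
Log2 ratio of the 5p to the 3p count for mir-322, mir-503 and mir-450b in every mouse, by group, with filled points for libraries whose spike-in score is above 0 and open points for those below. Within TG mice of either age the filled mir-322 points lie above the open ones, between -2.77 and -1.81 against -4.72 and -3.39 at 3 months.

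The first comparison asks which miRNAs differ between 3 and 6 months of age in TG mice. No member passed the test in edgeR (adjusted p under 0.05 and absolute log2FC above 0.26), although 15.7% of the 629 miRNAs tested did, 47 of them higher and 52 lower at 6 months. Of the 10 members, 8 were abundant enough to be tested, and their median log2FC was -0.20 beside -0.09 for all miRNAs tested. An unadjusted p under 0.05 was found for 4 of the 8 members and for 32.4% of the 629 miRNAs, and these 4 did not share a direction.

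mmu-miR-351-5p, the member with the miR-125 seed, ranged in 3-month-old TG mice from 19.7 to 39.97 CPM with a median of 26.1 CPM. At 6 months it ranged from 13.2 to 26.0 CPM with a median of 20.5 CPM. The upper part of the 3-month range was vacant at 6 months, while the lower part was shared, and the log2FC was -0.40 (SE 0.16, adjusted p = 0.0856). mmu-miR-542-3p ranged from 5.81 to 15.7 CPM with a median of 8.21 CPM at 3 months and from 4.09 to 9.80 CPM with a median of 6.64 CPM at 6 months (log2FC -0.45, SE 0.21, adjusted p = 0.136). Both had lower values at 6 months in all 24 alternative analyses, which are refits that share their libraries and no replication. The log2FC of mmu-miR-351-5p was only -0.09 (adjusted p = 0.693 by edgeR) in the libraries with a spike-in score above 0. It was -0.68 (adjusted p = 0.0527 by edgeR) in those below.

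mmu-miR-450a-5p lay on the opposite side. It ranged from 3.72 to 10.6 CPM with a median of 6.87 CPM at 3 months and from 2.798 to 12.2 CPM with a median of 10.6 CPM at 6 months (log2FC 0.53, SE 0.23, adjusted p = 0.1125). mmu-miR-503-3p ranged from 2.09 to 4.23 CPM with a median of 3.31 CPM at 3 months and from 2.44 to 5.06 CPM with a median of 4.39 CPM at 6 months (log2FC 0.36, SE 0.17, adjusted p = 0.138). Both were higher at 6 months in all 24 of these refits, and 7 of the 11 older TG mice exceeded every younger one in mmu-miR-503-3p.

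The other 4 members tested moved less than their error allowed to be resolved. mmu-miR-322-3p had a median of 25.3 CPM (16.7 to 27.4 CPM) at 3 months and 23.1 CPM (16.8 to 31.9 CPM) at 6 months, and its log2FC was 0.00 (SE 0.14, adjusted p = 0.988). The log2FC was -0.53 (SE 0.36, adjusted p = 0.307) for mmu-miR-322-5p. It was -0.43 (SE 0.33, adjusted p = 0.371) for mmu-miR-503-5p and 0.28 (SE 0.26, adjusted p = 0.480) for mmu-miR-450b-5p. mmu-miR-450b-3p and mmu-miR-542-5p were below the count filter.

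Because members of the cluster lay on opposite sides, their ratio within a library is shown, a description that was chosen after the values had been seen. The median ratio of mmu-miR-450a-5p to mmu-miR-542-3p counts was 0.767 in 3-month-old TG mice and 1.45 in 6-month-old TG mice. In wild-type controls it was 1.39 at the younger and 1.45 at the older age. The median ratio of mmu-miR-450a-5p to mmu-miR-351-5p counts was 0.244 and 0.494 in younger and older TG mice, and 0.311 and 0.480 in younger and older wild-type control mice. The first ratio had its lowest median in the young TG mice, where its lowest single value was 0.373 (34 against 92 counts). Its lowest values were 0.391 in older TG mice (4 against 11 counts) and 0.412 in older wild-type controls (3 against 8 counts). Both came from the shallowest library of their group and rest on few counts. mmu-miR-450a-5p had more counts than mmu-miR-542-3p in 2 of 9 young and 10 of 11 older TG mice. In wild-type controls this held for 3 of 5 young and 13 of 15 older mice. The median of the second ratio was lower at 3 months in both genotypes.

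The calls of members in TG mice depended on how unwanted variation was treated. With 1 factor from the residuals (RUVr), edgeR called 46.7% of all miRNAs, and mmu-miR-351-5p, mmu-miR-542-3p, mmu-miR-450a-5p and mmu-miR-503-3p were among them. With 2 such factors it called 49.6%, and with 1 factor from the spike-ins 36.2%, in both cases with the same 4 members. With 2 spike-in factors it called 16.5%, and mmu-miR-542-3p (log2FC -0.75) was the only member, while mmu-miR-450a-5p fell to a log2FC of 0.19. In the 5 younger and 5 older TG mice with a score above 0, 42.1% were called, with mmu-miR-322-5p (log2FC -0.58) and mmu-miR-450a-5p (0.53) among them. mmu-miR-351-5p was the only member called by DESeq2 (22.6% of all miRNAs), with RLE normalization (16.5%) and without 3-month-old TG mouse 8 (20.3%). In each of these analyses the share of members called has to be read against the share of all miRNAs.

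The second spike-in component was tied to age. It lay below the lowest of the 26 libraries of 6 months in 11 of the 14 libraries of 3 months, so that for most mice age and this difference between libraries cannot be told apart. Of the 23 cell type markers, 9 were called with age in TG mice and 14 were not. The neuronal miR-128-3p, the erythroid miR-451a, the endothelial miR-126a-3p and the choroid plexus markers miR-204-5p and miR-211-5p were higher at 6 months. The oligodendrocyte markers miR-219a-2-3p and miR-338-3p, the erythroid miR-144-3p and the muscle miR-1a-3p were lower. Markers of the same set did not always move together. Beside miR-128-3p (log2FC 0.73), the neuronal miR-124-3p (-0.66) and miR-9-5p (-0.17) were not called. Beside miR-126a-3p (0.73), miR-126a-5p (-0.33), miR-143-3p (0.28) and miR-145a-5p (0.03) were not called. The choroid plexus pair (miR-204-5p and miR-211-5p) summed to 290 to 749 CPM at 3 months and 638 to 1023 CPM at 6 months in TG mice. The part of these markers in the members' values was not tested. The heart miRNA miR-208a-3p was at 0 in 39 of 40 libraries.

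In wild-type control mice between 3 and 6 months, again no member passed the test, and edgeR called 0.152% of the 660 miRNAs, which is 1 miRNA. An unadjusted p under 0.05 was found for 2 of the 9 members tested and 102 of all miRNAs, and the median log2FC was -0.23 for members and -0.02 for all miRNAs. mmu-miR-351-5p had 23.4, 22.8, 41.6, 38.6 and 29.4 CPM in 3-month-old wild-type control mice 1 to 5, and 10.8 to 26.4 CPM with a median of 20.8 CPM in the 15 older mice. Mice 3, 4 and 5 exceeded all older mice, and mice 1 and 2, whose genotype field reads TG, lay within their range (log2FC -0.62, SE 0.19, adjusted p = 0.179 by edgeR). Without mice 1 and 2 the log2FC was -0.85 (SE 0.214, adjusted p = 0.154). It had the 14th smallest p of the comparison and was lower in all 20 alternatives.

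In both genotypes together, 3 of 5 wild-type control and 4 of 9 TG mice of 3 months exceeded the highest of the 26 older mice, at 26.4 CPM, in mmu-miR-351-5p. mmu-miR-450b-3p had 1.32, 1.15, 1.67, 1.06 and 0.631 CPM in the 5 younger wild-type control mice and 0 to 1.19 CPM with a median of 0.563 CPM in the older ones (log2FC -0.94, SE 0.37, adjusted p = 0.301; -0.90 without mice 1 and 2). This rests on 94 and 97 counts in all, and the ranges overlapped. The remaining 7 members had log2FC between -0.31 and 0.21, with adjusted p of 0.564 to 0.937. mmu-miR-351-5p was called by DESeq2, beside 1.97% of all miRNAs, with 2 RUVr factors, beside 31.4%, and with 1 RUVr factor, beside 28.6%, where mmu-miR-322-5p and mmu-miR-450b-3p were called too. With the replicate number of the titles as a block, mmu-miR-322-5p and mmu-miR-351-5p were called beside 37.9% of all miRNAs. That fit compared the ages within the numbers 1 to 5 only, as no younger wild-type control mouse has a higher number.

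The comparison of TG with wild-type control mice at 3 months asks whether members differ by genotype at the younger age, and it shares its 9 TG mice with the comparison of ages. edgeR called 0% of the 695 miRNAs, DESeq2 also called 0, and 7 (edgeR) and 12 (DESeq2) had an unadjusted p under 0.05. Of the 9 members tested, mmu-miR-503-3p and mmu-miR-450b-3p were among these 7, and the median log2FC was -0.32 for members beside 0.04 for all miRNAs.

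mmu-miR-503-3p had the smallest unadjusted p of all miRNAs in this comparison (0.0068, from edgeR). It was the higher arm of its hairpin in 6 of 9 TG and 5 of 5 wild-type control mice of this age. The level of mmu-miR-503-3p was 5.64, 2.73, 5.90, 5.56 and 7.39 CPM in wild-type control mice 1 to 5, and 2.09 to 4.23 CPM with a median of 3.31 CPM in the 9 TG mice. Of the 5 wild-type control mice, 4 lay above every TG mouse, and the exception was mouse 2. The genotype field of mouse 2 reads TG, but so does that of mouse 1, which lay above. The log2FC was -0.76 (SE 0.25, adjusted p = 0.998), which does not pass the correction over all miRNAs. It was -0.97 without mice 1 and 2 and below 0 in all 29 alternatives, and only with 2 RUVr factors, beside 6.04% of all miRNAs, was it called (log2FC -0.75).

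mmu-miR-450b-3p ranged in these TG mice from 0.178 to 1.106 CPM with a median of 0.669 CPM. The log2FC was -0.71 (SE 0.33, adjusted p = 0.998 by edgeR) and -0.65 without mice 1 and 2. Of the 5 wild-type values given above, those of mice 1, 2 and 3 lay higher than all TG mice, and the genotype field of mice 1 and 2 reads TG. mmu-miR-450a-5p had 8.53, 9.02, 9.94, 7.79 and 9.10 CPM in the 5 wild-type control mice, a narrow range that lay within that of the TG mice (log2FC -0.41, SE 0.27). mmu-miR-322-3p had 29.1, 24.9, 35.9, 32.1 and 23.7 CPM in the wild-type control mice (log2FC -0.32, SE 0.19). Of these, 3 exceeded the highest TG mouse at 27.4 CPM, mouse 1 among them. mmu-miR-542-3p had 4.92, 6.49, 12.3, 8.43 and 5.14 CPM in the wild-type control mice, within the TG range but for the lowest 2 (log2FC 0.25, SE 0.28). The log2FC of the remaining 4 was between -0.42 (mmu-miR-450b-5p) and 0.08 (mmu-miR-503-5p). No adjusted p of a member was under 0.998.

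At 6 months no member differed detectably between TG and wild-type control mice. edgeR called 0% of the 612 miRNAs and DESeq2 called 0, and 3 (edgeR) and 6 (DESeq2) had an unadjusted p under 0.05. All 8 members tested had a log2FC below 0, from -0.33 for mmu-miR-450b-5p to -0.03 for mmu-miR-351-5p, with a median of -0.12 beside -0.01 for all miRNAs. mmu-miR-503-3p ranged from 3.15 to 6.82 CPM with a median of 5.42 CPM in wild-type control mice, against the TG values given above (log2FC -0.28, SE 0.15, adjusted p = 0.992). It was thus lower in TG mice at both ages by values that did not pass the test at either.

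Whether the change with age differed between the genotypes was tested by an interaction term in a fit of the 4 groups. edgeR called 0% of the 699 miRNAs, DESeq2 called 0, and 14 (edgeR) and 18 (DESeq2) had an unadjusted p under 0.05, with no member among the 14. The median interaction was 0.19 for the 9 members tested and -0.10 for all miRNAs. The member with the smallest p was mmu-miR-503-3p, with 0.46 (SE 0.27, adjusted p = 0.986). The values for mmu-miR-351-5p (0.19, SE 0.24) and mmu-miR-542-3p (-0.43, SE 0.33) were also not resolved.

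**Figure D4:**
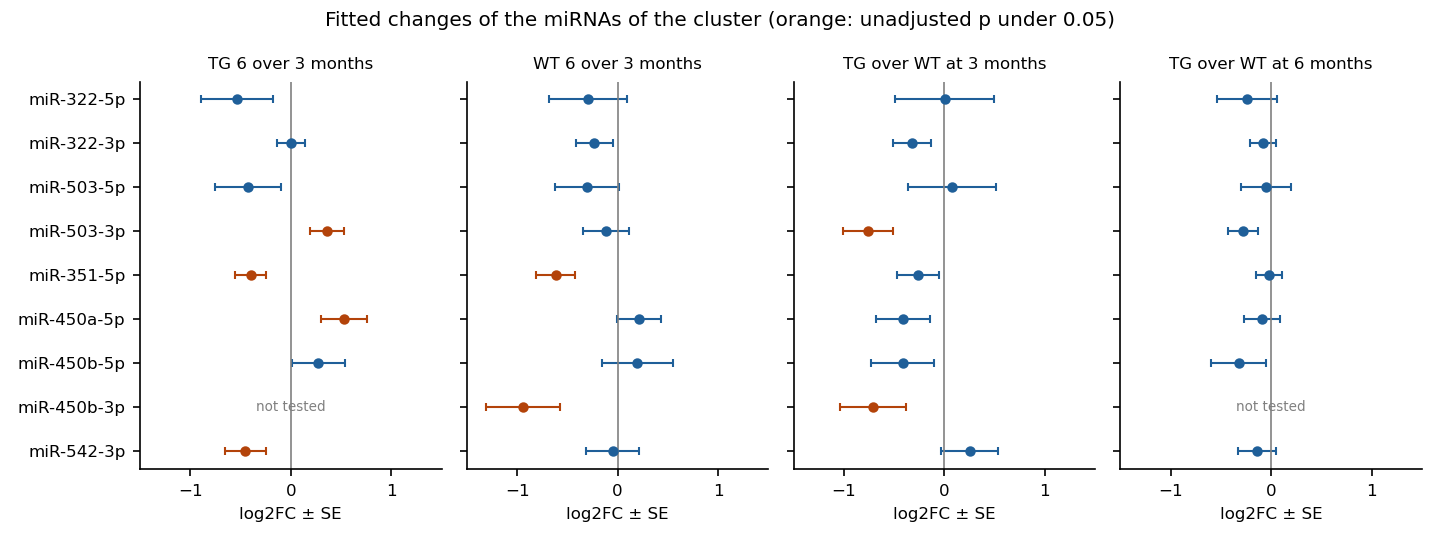
Log2FC ± SE of 9 members in 4 comparisons from edgeR, with orange points for an unadjusted p under 0.05 and a mark where a member was below the count filter. mmu-miR-351-5p lies below 0 with age in both genotypes and mmu-miR-503-3p below 0 in TG mice at both ages, and no point passes an adjusted p of 0.05.

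miRNAs with the same seeds are the natural companions of these members. mmu-miR-322-5p shares its seed with mmu-miR-16-5p (296 CPM on average over 40 libraries), mmu-miR-195a-5p (90.8 CPM), mmu-miR-497a-5p (14.9 CPM), mmu-miR-15a-5p (12.6 CPM) and mmu-miR-15b-5p (5.88 CPM), all more abundant than its own 3.03 CPM. mmu-miR-351-5p, at 23.1 CPM, shares its seed with mmu-miR-125b-5p (12879 CPM) and mmu-miR-125a-5p (6210 CPM). Further relatives were close to 0, namely mmu-miR-195b (0.076 CPM) and mmu-miR-6353 (0.002 CPM) with the seed of mmu-miR-322-5p, mmu-miR-6367 (0.194 CPM) with that of mmu-miR-351-5p and mmu-miR-6966-5p (0.311 CPM) with that of mmu-miR-542-5p, and mmu-miR-6342, mmu-miR-6419, mmu-miR-6394 and mmu-miR-6352 were at 0 in every library. Of the counts with either of the first 2 seeds, the cluster thus held a small part.

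Of these relatives, mmu-miR-125b-5p and mmu-miR-15a-5p were called between the ages in TG mice, beside 15.7% of the 629 miRNAs tested. mmu-miR-125b-5p had 17529 ± 4618 CPM (SD, n = 9) at 3 months and 11272 ± 3433 CPM (n = 11) at 6 months (log2FC -0.62, SE 0.19, adjusted p = 0.0266 by edgeR). mmu-miR-15a-5p had 25.1 ± 19.1 and 7.60 ± 5.11 CPM (log2FC -1.67, SE 0.49, adjusted p = 0.0234 by edgeR). The ranges of the ages overlapped for both, and mmu-miR-15a-5p spanned 2.53 to 48.9 CPM in the younger TG mice. The other 5 tested had log2FC between -0.56 (mmu-miR-15b-5p) and -0.17 (mmu-miR-497a-5p) and were not called. No relative was called in the other comparisons. The cluster's own members with these seeds, mmu-miR-351-5p and mmu-miR-322-5p, had the log2FC of -0.40 and -0.53 given above.

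The members differed in how they followed the spike-in score. The sides of the score were compared for members only, so whether other miRNAs differed as much was not tested. Among the members, mmu-miR-322-5p differed most between the sides. In 3-month-old TG mice it lay between 3.53 and 7.36 CPM in libraries with a score above 0. In those below it lay between 0.888 and 2.53 CPM, with no overlap. In 6-month-old TG mice the ranges were 2.78 to 4.08 CPM and 0.813 to 2.25 CPM, again with no overlap, and in 6-month-old wild-type control mice 2.31 to 5.41 CPM and 0 to 2.38 CPM. Over these 3 groups its mean log2 level was higher by 1.18 to 1.79 in libraries above 0. Within a group of 1 age and genotype, these differences were larger than its log2FC in each of the 4 comparisons of groups by edgeR, of which -0.53 was the farthest from 0.

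mmu-miR-450b-5p and mmu-miR-542-3p went the other way, with log2 differences of -0.91 to -0.30 and -0.83 to -0.39 between libraries above and below 0. mmu-miR-503-3p was nearly level with the score, with differences of 0.01 to 0.25, and mmu-miR-351-5p had no common sign (-0.31 to 0.36). Scores above 0 were found in 4 of 5 and 5 of 9 wild-type control and TG mice at 3 months, and in 8 of 15 and 5 of 11 at 6 months. Correlations with the score were computed in the older wild-type control mice on either side of 0. In the 7 libraries below 0, 4 of 9 members passed (exact permutation test, two-sided, adjusted over 18 relations): mmu-miR-351-5p (r = 0.97, exact adjusted p = 0.0179), mmu-miR-450b-5p (0.90, 0.0179), mmu-miR-322-3p (0.92, 0.0241) and mmu-miR-503-5p (0.82, 0.0241). For mmu-miR-450b-5p this sign was opposite to its difference between the sides. Only members were tested against the score, so no share of all miRNAs stands beside these 4. In the 8 above 0, mmu-miR-351-5p alone passed, with r = -0.84 (exact permutation test, adjusted p = 0.0484). By Spearman's rho none passed. Without the 2 libraries farthest from the median score, r was 0.82, 0.78, 0.44 and 0.79 for the 4 members below 0 and -0.47 for mmu-miR-351-5p above 0. Below 0, the 2 omitted libraries were those of mice 4 and 5, the shallowest of the group.

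**Figure D5:**
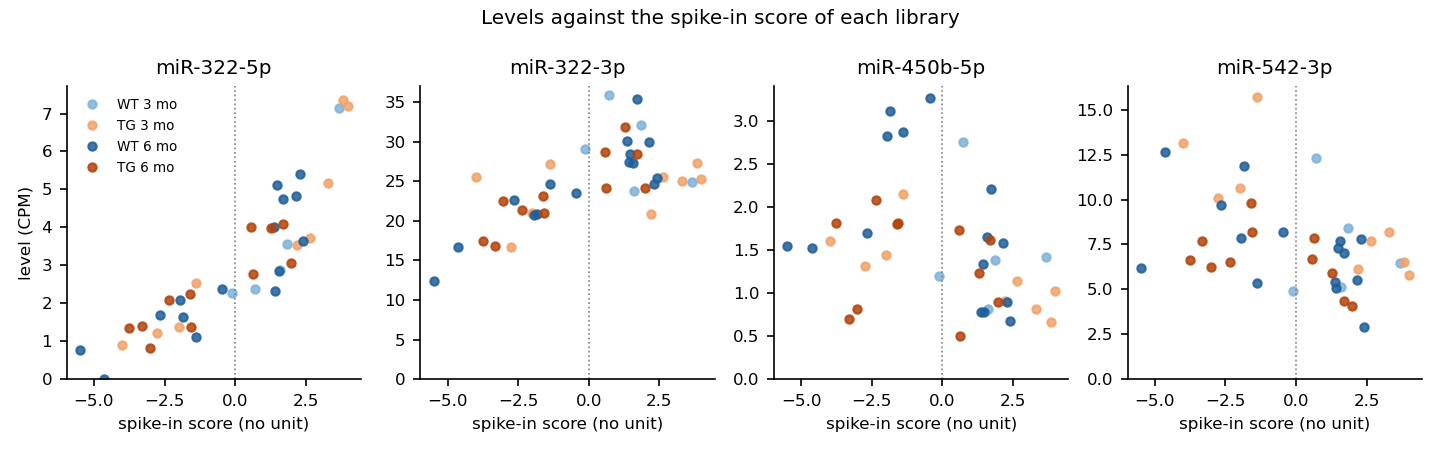
Level (CPM) of mmu-miR-322-5p, mmu-miR-322-3p, mmu-miR-450b-5p and mmu-miR-542-3p in every library against its spike-in score (first principal component, no unit), coloured by group. mmu-miR-322-5p is high on the right and low on the left of 0 in TG mice of both ages, while the other arm of its hairpin differs less.

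Likeness to mmu-miR-322-3p, the member with the highest mean over all libraries, was measured by Pearson's r of log2 CPM over the 15 wild-type control mice of 6 months, the largest group. Of 698 miRNAs, 61% had an adjusted p under 0.05 (permutation test with 100000 resamples, two-sided), 253 of the 426 with a positive r, and without TMM normalization 489 passed, 400 of them with a positive r. The median r over all miRNAs was 0.32 with TMM normalization and 0.66 without it. Of the 8 other members tested, 5 were among them: mmu-miR-351-5p (r = 0.90, Spearman's rho 0.80), mmu-miR-503-5p (0.81, rho 0.60), mmu-miR-322-5p (0.73, rho 0.79), mmu-miR-450a-5p (0.72, rho 0.19) and mmu-miR-450b-3p (0.59, rho 0.36). mmu-miR-503-3p (0.17), mmu-miR-450b-5p (-0.20) and mmu-miR-542-3p (-0.33) were not. Without the 2 mice farthest from the median of mmu-miR-322-3p, which have the shallowest libraries of the group, 0 of 8 members and 1 of 698 miRNAs passed. The calls thus rest on these mice, and without them r went to 0.00 for mmu-miR-450a-5p and 0.44 for mmu-miR-503-5p but was 0.66 for mmu-miR-322-5p and 0.69 for mmu-miR-351-5p.

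The r of mmu-miR-351-5p was 0.74 within the 8 libraries with a score above 0 and 0.95 within the 7 below, where that of mmu-miR-322-5p was 0.20 and 0.51. mmu-miR-351-5p ranked 5th of 698 by r. By the rule for likeness, the 5 miRNAs outside the cluster with the highest r and a mean of at least 10 CPM were mmu-miR-23a-3p (0.92), mmu-miR-671-5p (0.91), mmu-miR-874-3p (0.91), mmu-miR-135a-5p (0.90) and mmu-miR-376a-5p (0.89), over the same 15 mice.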

How the data were processed

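The authors trimmed 3′ adapters (per the labels with cutadapt 2.8), aligned reads with the mapper of mirdeep2 to mm10, annotated them with miRBase, and deposited raw counts per pair of mature miRNA and precursor (2128 pairs), with no normalization. Deposited values scaled to library size were not used. Members and gene lists were chosen with earlier results of these data known. The text names all members, the other arms of their hairpins, every measured miRNA with a member's seed, and the 5 miRNAs most like the leading member.

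For every comparison, edgeR (4.0.16, R 4.3.3) was run on the groups compared, with filterByExpr (minimum count 10, minimum total 15), TMM and its quasi-likelihood F test, and p-values were adjusted by Benjamini-Hochberg over all miRNAs tested. Arm ratios used limma (3.58.1) on log2((5p + 0.5)/(3p + 0.5)) for hairpins with a mean of at least 10 counts on each arm. CPM used TMM factors over all 40 libraries, and log2 CPM for correlations a prior count of 2. Permutation tests used an own implementation, with ranks from scipy (1.17.1). Alternatives were DESeq2 (1.42.0), other normalizations and filters, RUVr factors (own implementation), the replicate block, summed precursors, a joint fit, omitted mice and, added after seeing the data, spike-in factors, depth and spike-in score. Scripts were tested on simulated data. No pair of libraries of a group was a copy. The labels do not say more about replicates than 1 library per numbered mouse, so p-values measure the spread between these libraries.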

Additional observations from a re-analysis of the deposited data

Results flagged for a closer look

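Of the 20 groups of 5 to 10 mice whose member levels were examined for a mouse far from the others (a rule that chance meets in about 1 of 20 groups), 1 held such a mouse. mmu-miR-322-5p was 7.14 CPM (186 counts) in 3-month-old wild-type control mouse 2, while the other 4 mice had 2.28 to 3.55 CPM, and the gap was 0.739 of the range, above the critical value of 0.71 for 5 samples. The genotype field of this mouse reads TG, and its library has a spike-in score of 3.66, the highest of its group. The part of either in the level was not tested.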

How the results depend on the processing

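No member was called in any of the 5 comparisons as analysed, and this count moved as follows. Between the ages in TG mice it was 4 with 1 RUVr factor, 2 RUVr factors or 1 spike-in factor, 2 in libraries with a spike-in score above 0, and 1 with DESeq2, RLE normalization or 2 spike-in factors. Leaving out 1 TG mouse of 3 months at a time gave 0 to 1 member. With age in wild-type control mice it was 3 with 1 RUVr factor, 2 with the replicate block and 1 with DESeq2 or 2 RUVr factors. For TG against wild-type at 3 months it was 1 with 2 RUVr factors. The cause was not tested.

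Of 997 alternative values of the log2FC of a member, 6 changed sign from a value larger than its SE. In TG mice with age mmu-miR-322-5p became 0.12 with 1 spike-in factor and 0.15 in libraries with a score below 0, mmu-miR-450b-5p became -0.17 with 2 spike-in factors, and mmu-miR-503-5p became 0.29 with 2 spike-in factors and 0.09 in libraries below 0. The interaction for mmu-miR-542-3p became 0.11 in libraries above 0. A further 64 changed sign from values under their SE. The count of members correlated with mmu-miR-322-3p went from 5 to 0 without 2 mice, and the calls of arm ratios in the cluster were 0 throughout.

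Over 0.1 were the correlations of 7 of 9 (age in TG mice, mean 0.226), 2 of 5 (age in wild-type control mice, 0.035), 2 of 5 (genotype at 3 months, 0.007) and 9 of 11 (genotype at 6 months, 0.259) same-numbered pairs, and since this was not every pair the number was not taken as a pairing. The spike-in score followed the number in part: number 1 was below 0 in 4 of 4 groups and number 8 in 3 of 3, but numbers 6 and 7 in 0 of 3. With the number as a block, calls with age in wild-type control mice went from 1 to 250 of all miRNAs, mmu-miR-322-5p (-1.45) and mmu-miR-351-5p (-0.91) included. Wild-type control mice of 3 months have only the numbers 1 to 5, so that fit compared the ages within these numbers alone. Among the older mice, numbers 4 and 5 had the shallowest libraries, with 0 and 1 counts of mmu-miR-322-5p. In TG mice 0 members were called with the block. The comparison within libraries below 0 was not run for 3 of the 5 comparisons, where a group had fewer than 2 such libraries. Depth limits the rarer arms: mmu-miR-542-5p and mmu-miR-450b-3p had 41 and 392 counts in all.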
